A study of Mus musculus with 165 samples.

Results

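The first hour of 4-hydroxy-tamoxifen (OHT) in granulocyte colony stimulating factor (GCSF) was described from 6 RNA-Seq libraries, 3.64% of the libraries of the series. They were the 3 libraries labelled as PUER cells in GCSF with OHT at 0h and the 3 labelled likewise at 1h. PUER cells are labelled as bone marrow-derived mouse progenitors with the genotype Spi1-/-. The study's text names both bone marrow and fetal liver as their source. The cells lack the transcription factor PU.1 and carry instead a PU.1 protein joined to the hormone-binding part of the estrogen receptor. All 6 libraries came from cells moved for 48 h from 5 ng/ml IL3 to 10 ng/mL GCSF. The GCSF 0h cells were collected before OHT, although their titles name it, and the GCSF-OHT 1h cells were collected 1 h after 100 nM OHT was added. The study set this time course against a macrophage differentiation in which the cells stayed in 5 ng/ml IL3 and received 200 nM OHT. From it, the undifferentiated cells (IL3 0h, 3 libraries) and IL3-OHT 1h (3 libraries) were used. PUER cells are 1 immortal line, each time point had a culture plate of its own, and there was no vehicle control, so OHT, the plate and the added hour cannot be told apart in the comparison of 1h with 0h.

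PU.1 is an ETS-family factor that binds sequences around a GGAA core and controls much of the macrophage and neutrophil program. The fusion protein is held inactive in the cytoplasm until OHT binds the receptor domain, after which it can enter the nucleus. Immediate-early genes are those that cells transcribe within minutes of a signal without new protein synthesis. They include the AP-1 factors of the FOS and JUN families and the EGR factors, and they are followed by feedback genes such as the dual-specificity phosphatases, which switch off MAP kinases. GCSF itself signals through JAK kinases and STAT factors.

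The 6 libraries held between 19839205 and 25489425 reads on genes and between 16259 and 16595 genes with at least 1 read. The unit throughout is the normalized count, the authors' count divided by the library's size factor. The floor, 3 reads, was worth 2.46 to 3.12 on this scale and allows for counting error only. Mitochondrially encoded genes took 1.94% to 2.38% of the reads. *Spi1* was at 12483, 12811 and 12464 in the GCSF 0h libraries and at 12338, 12164 and 12206 at 1h. The gene-level counts cannot separate the fusion transcript from any transcript of the disrupted gene. The neutrophil granule protease *Elane* was among the markers of the line that were high in all 6 libraries, at a mean of 116351 at 0h and 122160.0 at 1h, and *Cebpa*, *Mpo*, *Prtn3*, *Ctsg*, *Kit* and *Myb* were also present. The progenitor marker *Cd34* was at 0 in all 6 libraries and the pan-leukocyte gene *Ptprc* had a mean of 0.311 at 0h and 0.621 at 1h, below the floor.

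Promoter sequences are shown first for genes described below whose RNA was higher at 1h and that held a motif before their start. The promoters are the 250 bases before the annotated start, from RefSeq on GRCm38.p6, written 5′ to 3′ along the gene's strand, with the motif in capitals. In *Dusp5* (chr19:53528895-53529144, forward strand) and *Egr2* (chr10:67537316-67537565, forward strand, 1 of its 5 annotated starts) the capitals mark CArG boxes, the element bound by serum response factor, 2 of them side by side in *Dusp5*. In *Dusp1* (chr17:26508473-26508722, reverse strand) and *Ppp1r15a* (chr7:45526269-45526518, reverse strand) they mark the cAMP response element TGACGTCA, in *Rel* (chr11:23770970-23771219, reverse strand) the PU.1 motif GAGGAAGT, and in *Tnfaip3* (chr10:19015411-19015660, reverse strand) the AP-1 site TGANTCA. On the opposite strand and left in lower case, the stretch of *Dusp5* also holds the PU.1 motif once, and that of *Ppp1r15a* the shorter GGAAGT.
Dusp5: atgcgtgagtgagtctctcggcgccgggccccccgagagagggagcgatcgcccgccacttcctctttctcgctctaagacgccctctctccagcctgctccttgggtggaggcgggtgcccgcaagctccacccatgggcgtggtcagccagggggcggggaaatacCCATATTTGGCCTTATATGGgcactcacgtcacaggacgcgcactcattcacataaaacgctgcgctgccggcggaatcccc
Egr2: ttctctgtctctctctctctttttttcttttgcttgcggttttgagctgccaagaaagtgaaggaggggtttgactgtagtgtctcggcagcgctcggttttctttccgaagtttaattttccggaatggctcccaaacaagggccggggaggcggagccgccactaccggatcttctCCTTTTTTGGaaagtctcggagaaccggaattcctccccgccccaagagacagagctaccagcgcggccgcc
Dusp1: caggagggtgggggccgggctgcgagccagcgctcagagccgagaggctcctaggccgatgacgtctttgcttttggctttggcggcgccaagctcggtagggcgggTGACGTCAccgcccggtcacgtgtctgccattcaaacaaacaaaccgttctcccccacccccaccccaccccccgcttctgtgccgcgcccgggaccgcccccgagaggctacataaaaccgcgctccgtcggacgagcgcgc
Ppp1r15a: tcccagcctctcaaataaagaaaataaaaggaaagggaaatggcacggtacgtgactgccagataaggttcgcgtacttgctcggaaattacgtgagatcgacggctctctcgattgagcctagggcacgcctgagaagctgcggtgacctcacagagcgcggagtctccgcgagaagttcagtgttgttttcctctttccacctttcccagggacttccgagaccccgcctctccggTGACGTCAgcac
Rel: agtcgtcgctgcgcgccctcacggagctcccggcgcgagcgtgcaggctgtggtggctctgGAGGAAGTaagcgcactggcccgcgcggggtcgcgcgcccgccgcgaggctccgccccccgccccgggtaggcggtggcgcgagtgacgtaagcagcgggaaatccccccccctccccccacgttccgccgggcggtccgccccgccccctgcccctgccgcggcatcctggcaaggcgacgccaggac
Tnfaip3: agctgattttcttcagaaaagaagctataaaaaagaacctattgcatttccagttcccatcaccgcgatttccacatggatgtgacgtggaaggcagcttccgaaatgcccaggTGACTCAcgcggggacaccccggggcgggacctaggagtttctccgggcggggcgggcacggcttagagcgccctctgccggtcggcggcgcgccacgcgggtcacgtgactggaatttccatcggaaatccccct

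Over whole windows, 250 bases before to 50 after each start, CArG boxes stood in 2.57% of the 662 windows of genes that rose in the first hour, in 0 of the 340 windows of genes that fell, and in 1.30% of the 14706 windows of all tested genes (1.63% of all 32851 windows in the table). The AP-1 site was found in 10.3% of the windows of genes that rose, 3.53% of those of genes that fell and 5.85% of those of tested genes (7.81% of all windows). For the PU.1 motif the shares were 3.17%, 3.82% and 3.14% (3.20%), and for the shorter GGAAGT, which lies within it, 23.3%, 24.4% and 27.2% (23.8%). The cAMP response element was in 3.02%, 3.24% and 2.80% (1.79%), the EGR site GCGNGGGCG in 6.95%, 9.12% and 9.46% (5.55%), and the STAT site TTCNNNGAA in 8.01%, 11.2% and 7.05% (8.30%). Both strands were searched, 11654 of the 17414 tested genes had a window, and these shares are descriptions without a test. A gene with several starts counts once per window, and such windows can overlap. The 662 windows thus came from 513 genes and the 340 from 262. Of the 17 windows with a CArG box among genes that rose, several belonged to *Egr2*. Among genes described here, the PU.1 motif was also in the windows of *Csf2rb2*, which rose, and of *Elane* and *Prtn3*, which were not called.

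Within 1 h of OHT, 699 genes had risen and 354 had fallen of 17414 tested, which is 4.01% and 2.03% of them. To be called a differentially expressed gene (DEG), a gene needed a log2 fold change beyond 0.58 in either direction and an adjusted p below 0.05. Fold changes are on the log2(normalized count + 1) scale, which understates the change of low genes. The rises were larger than the falls: the median log2 fold change was 1.12 among the genes that rose and -0.74 among those that fell, 81 genes rose by more than 2 and 6 fell by more than 2. With a mean of at least 50 in the higher group, 428 of the genes that rose and 275 of those that fell remained. The 3 libraries at 1h all lay above the 3 at 0h in 651 of the 699 genes and all lay below in 336 of the 354, where 19.9% and 19.1% of all tested genes had no overlap in those directions.

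**Figure D1:**
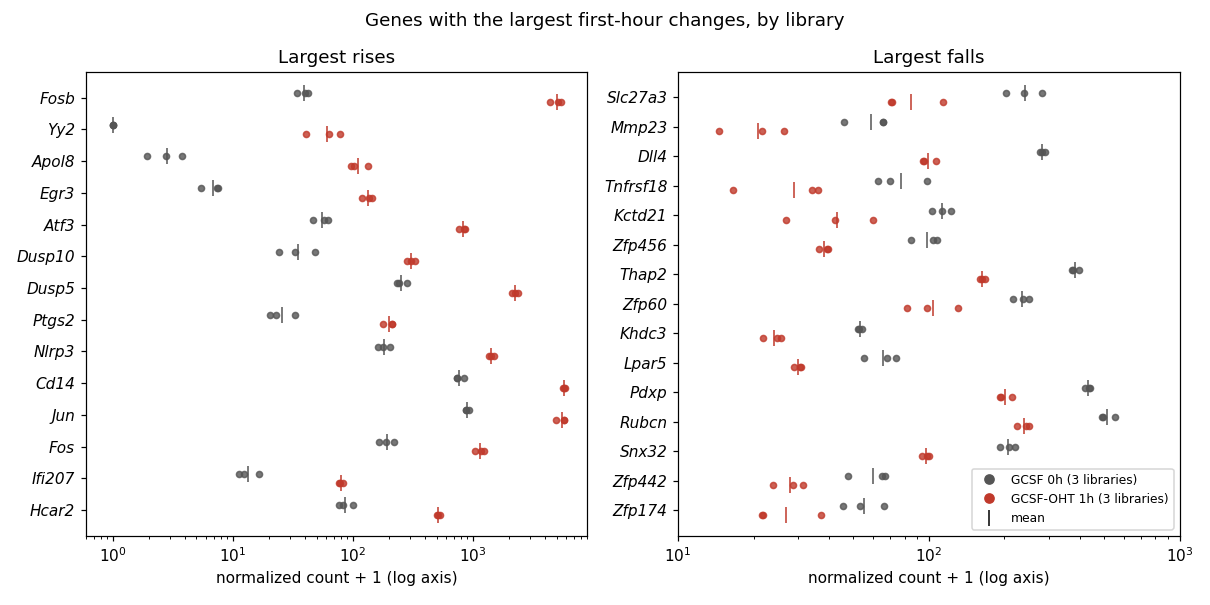
Normalized count + 1 (log axis) of 14 of the 15 genes with the largest rises and of the 15 with the largest falls. A point stands for a library of GCSF 0h (grey) or GCSF-OHT 1h (red) and a bar for the group mean. The choice required a mean of at least 50 in the higher group, groups without overlap and a settled symbol. Among these genes the rises reach a log2 fold change of 6.99 for *Fosb* and the falls -1.53 for *Slc27a3*.

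The AP-1 factors held the largest rise of all. Of 12 tested, 6 rose and 0 fell, where 4.01% and 2.03% of all genes did. Their median log2 fold change was 0.93 against 0.00 over all genes. *Fosb* (ENSMUSG00000003545, chromosome 7 from 19302696 to 19310051 on the reverse strand, GRCm38) encodes a FOS-family partner of JUN proteins. Its normalized count was 41.6, 33.6 and 39.1 in the 3 GCSF 0h libraries and 4402, 5434 and 5124 in the 3 at 1h (log2 fold change 6.99, standard error 0.18, adjusted p = 8.10e-63). The lowest library at 1h was thus far above the highest at 0h. *Fos* went from 218, 188.6 and 164.96 to 1039, 1179 and 1239 (log2 fold change 2.60, standard error 0.12, adjusted p = 1.61e-39). *Jun*, the main DNA-binding partner of FOS, went from 928, 880.0 and 883 to 4969.8, 5744 and 5726 (log2 fold change 2.61, standard error 0.09, adjusted p = 3.59e-52). *Atf3*, a stress-induced member that represses many inflammatory genes, went from 60.99, 46.04 and 56.9 to 762, 856 and 849.5 (log2 fold change 3.90, standard error 0.15, adjusted p = 8.44e-46). In each of these the groups were separate. *Fosl1* and *Jund* completed the 6, with log2 fold changes of 1.19 and 1.98, and *Jund* was the most abundant of them at a mean of 21559 at 1h.

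EGR factors are zinc-finger proteins that in myeloid progenitors act with PU.1 toward the macrophage program, and NAB proteins bind and restrain them. Of the 6 genes, 4 rose and none fell, where 4.01% and 2.03% of all genes did. *Egr1* (ENSMUSG00000038418, chromosome 18 from 34859823 to 34864984 on the forward strand) was at 335, 253 and 206.9 at 0h and at 697, 822 and 795 at 1h (log2 fold change 1.56, standard error 0.18, adjusted p = 8.94e-13). *Egr2* was at 12.01, 13.3 and 9.32 and then at 35.1, 62.4 and 55.05 (log2 fold change 2.02, standard error 0.22, adjusted p = 1.34e-13), and its promoter is among those shown. *Egr3* stood lowest at 0h, at 6.47, 4.43 and 6.52, and reached 117.5, 135.3 and 143.8 (log2 fold change 4.30, standard error 0.57, adjusted p = 5.27e-10). The libraries of the 2 groups did not overlap for these 3 genes. *Nab2*, the corepressor that EGR factors induce, rose less, from 912, 849 and 701 to 1418, 1283 and 1231 (log2 fold change 0.68, standard error 0.12, adjusted p = 1.31e-06). Without GCSF 0h replicate 3 its log2 fold change was 0.57, under the threshold.

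Of 44 other immediate-early genes, 24 rose, none fell and 20 did not pass the test (median 0.79), against 4.01% of all genes that rose. *Btg1*, an antiproliferative gene, was at 1259.6, 1081 and 1059.7 at 0h and at 5437, 5641 and 6229 at 1h (log2 fold change 2.35, standard error 0.09, adjusted p = 2.51e-47). *Klf6*, a Krüppel-like zinc-finger factor, was at 2317, 2089 and 2150.1 and at 6122, 6591 and 6852 (log2 fold change 1.58, standard error 0.05, adjusted p = 6.04e-52). *Trib1*, a pseudokinase that directs C/EBPα to degradation, was at 1549.8, 1392 and 1302 and at 4019, 4640.4 and 4498 (log2 fold change 1.63, standard error 0.09, adjusted p = 2.92e-34). The RNA of *Cebpa*, which encodes C/EBPα, was at 28139, 28741 and 28124 and at 23308, 25168 and 26224 (adjusted p = 0.315, log2 fold change -0.19). *Phlda1* rose by 1.76 on the log2 scale, *Ptgs2*, the inducible cyclooxygenase, by 3.00 and *Nr4a1*, an orphan nuclear receptor, by 2.31 from a mean of 5.45.

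Of 15 feedback genes of the ERK pathway (phosphatases, Sprouty and Spred genes), 9 rose, none fell and 6 did not pass the test (median 1.21), and all 15 log2 fold changes were positive. Of 42 MAPK kinases and adaptors, 2 rose and 1 fell (median 0.04), where 4.01% and 2.03% of all genes rose and fell, and the 2 lists were not tested against each other. *Dusp5*, a nuclear phosphatase of ERK whose promoter holds the paired CArG boxes and a PU.1 motif, was at 281, 232 and 240.4 at 0h and at 2130.2, 2256 and 2367 at 1h (log2 fold change 3.16, standard error 0.08, adjusted p = 6.25e-62). *Dusp1*, which acts on JNK and p38 as well as ERK, was at 218, 216.03 and 188.3 and at 1019.7, 1229.8 and 1264 (log2 fold change 2.49, standard error 0.14, adjusted p = 4.95e-33). *Dusp6*, the cytoplasmic ERK phosphatase, started higher, at 2772, 2289.5 and 2116, and reached 5067, 5611 and 5837 (log2 fold change 1.21, standard error 0.07, adjusted p = 4.65e-32). For all of these the 1h libraries lay above every 0h library. *Dusp10* and *Dusp16*, phosphatases of JNK and p38, rose by 3.18 and 2.03, and *Spry1*, an inhibitor of receptor signalling, by 0.97. The kinase gene that fell was *Mapkapk3*, from 5817, 6268 and 6176 to 3802, 3949.5 and 3755 (log2 fold change -0.67, standard error 0.05, adjusted p = 2.53e-23), and the kinases *Map3k8* and *Map3k14* rose by 0.77 and 0.68. Without GCSF 0h replicate 3 or GCSF-OHT 1h replicate 1, *Map3k14* was under the threshold, at 0.56 in both.

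Of 29 genes of the JAK-STAT pathway, through which GCSF and IL3 signal, 4 rose and 3 fell, where 4.01% and 2.03% of all genes did. *Pim1*, a kinase gene induced by STAT5, was at 6429, 6337 and 6454 at 0h and at 12514, 12758 and 13067 at 1h (log2 fold change 1.00, standard error 0.08, adjusted p = 2.02e-21). *Cish*, another STAT5 target and an inhibitor of cytokine receptors, went the other way, from 2062, 1785 and 1726 to 1017, 1045 and 920.2 (log2 fold change -0.90, standard error 0.08, adjusted p = 2.84e-18). *Csf2rb2*, the IL3-specific β chain, was at 2760.4, 2923 and 2799 and then at 6599, 5931 and 5677 (log2 fold change 1.10, standard error 0.05, adjusted p = 8.78e-39). It is a near copy of *Csf2rb*, so reads could be split between them. *Stat2* fell by 0.74 and *Bcl3* by 0.58 on the log2 scale, the latter at the edge of the threshold. The cytokine genes *Osm* and *Lif* rose by 1.35 and 1.11, *Lif* from a mean of only 6.71. *Csf3r*, the receptor of GCSF, was at 5266, 6039.9 and 5847 and at 4917, 4769 and 4559.8 (log2 fold change -0.27, standard error 0.06, adjusted p = 4.75e-04), a decrease that passed the p threshold and not the fold-change threshold.

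Of 18 NF-κB factors and inhibitors 6 rose, none fell and 12 did not pass the test (median 0.38), where 4.01% of all genes rose. Of 22 cytokines and chemokines 10 rose, none fell and 12 did not pass (median 0.62). *Nfkbia*, the inhibitor that retains NF-κB in the cytoplasm, was at 1802, 1735 and 1724 at 0h and at 3613, 3810.1 and 3940.4 at 1h (log2 fold change 1.11, standard error 0.07, adjusted p = 6.54e-30). *Rel*, an NF-κB subunit whose promoter holds the PU.1 motif, was at 198.7, 207.2 and 225 and at 408, 362 and 467 (log2 fold change 0.96, standard error 0.10, adjusted p = 1.79e-14). *Tnfaip3*, the ubiquitin-editing inhibitor A20, rose by 1.19, and *Traf1*, a receptor adaptor, by 1.45. Of the chemokines, *Ccl3* was at 437, 368 and 390.5 and at 1327, 1467 and 1551 (log2 fold change 1.86, standard error 0.09, adjusted p = 5.19e-36), and *Ccl4* and *Cxcl2* rose by 1.82 and 2.22. Both CCL proteins attract monocytes, and CXCL2 attracts neutrophils. *Tnf* rose by 0.80 and *Il1b* by 2.91, the latter from a mean of 1.21, under the floor. *Nlrp3*, the inflammasome sensor, was outside these lists and went from 203.3, 176.2 and 162.2 to 1360.0, 1409 and 1486 (log2 fold change 2.97, standard error 0.09, adjusted p = 9.07e-59).

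Of 43 known targets of PU.1, 7 rose, none fell and 36 did not pass the test (median 0.26), where 4.01% of all tested genes rose. Among monocyte and macrophage markers 9 of 25 rose and none fell (median 0.42), and their summed normalized counts were 136251 to 168248 at 0h and 187965 to 195219 at 1h. *Cd14*, the lipopolysaccharide co-receptor, is in both lists and went from 836, 740.2 and 733 to 5865, 5656 and 5784 (log2 fold change 2.91, standard error 0.06, adjusted p = 5.00e-76). *Cx3cr1*, the fractalkine receptor of monocytes, went from 201.5, 149.6 and 135.1 to 565, 486 and 541 (log2 fold change 1.72, standard error 0.07, adjusted p = 2.14e-43). Both were separate between the groups. The lysosomal protease *Ctsl* rose by 0.94 and the lectin *Lgals3* by 0.79, whereas *Msr1*, *Mmp12* and *Lyz1* were called from means of 0, 0.898 and 1.21 at 0h and 1.31, 3.71 and 5.08 at 1h, at or near the floor. Of 9 primary granule proteins none was called (median -0.01), and of 28 secondary and tertiary granule proteins only *Anxa1*, an anti-inflammatory protein stored in those granules, was, from 1324, 1162 and 1223 to 2862, 2641 and 2692 (log2 fold change 1.14, standard error 0.08, adjusted p = 1.01e-25).

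Hypoxia and glycolysis genes rose in 9 of 30 cases and fell in none (median 0.47), where 4.01% and 2.03% of all genes did. *Slc2a1*, the glucose transporter GLUT1, was at 1219, 1147 and 1064 at 0h and at 4505, 4787 and 4552 at 1h (log2 fold change 2.01, standard error 0.16, adjusted p = 8.15e-21), and *Adm*, the vasodilator adrenomedullin, rose by 1.86, *Ndrg1* by 1.53, *Bnip3*, a mitophagy receptor, by 1.06 and *P4ha1*, a prolyl hydroxylase subunit, by 0.75. The glycolytic enzyme *Pgk1* rose by 0.65. Among 21 clock genes 4 rose and 2 fell. The period gene *Per1*, which cAMP and glucocorticoid signals induce, was at 240.3, 266 and 269 and at 1223, 1414 and 1415 (log2 fold change 2.38, standard error 0.16, adjusted p = 3.05e-25), and *Per2* at 1296, 1202 and 1208 and at 4003, 4108 and 4042 (log2 fold change 1.71, standard error 0.06, adjusted p = 1.92e-47). *Per3* and *Arntl* fell, by 0.70 and 0.70.

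Smaller groups followed. Of 15 BCL2-family genes 2 rose, the survival gene *Mcl1* from 8571, 8440.1 and 8401 to 20579, 20805 and 22829 (log2 fold change 1.34, standard error 0.08, adjusted p = 2.49e-28) and *Bcl2l11*, which encodes the death-promoting BIM, from 1360.3, 1241 and 1301 to 2709.7, 2556 and 2656 (log2 fold change 1.02, standard error 0.05, adjusted p = 1.71e-36). Both members thus rose, although they act in opposite ways. Over all tested genes, 4.01% rose and 2.03% fell. At those shares, each of these smaller lists would also hold few calls. Their counts were not tested against those shares and are descriptions only. Of 29 regulators of G-protein, calcium and cAMP signalling 5 rose, with *Creb5*, a CRE-binding factor, at 1.54, *Plaur*, the urokinase receptor, at 1.44 and *Pde4b*, a cAMP phosphodiesterase, at 1.18. Heat shock proteins rose in 3 of 20 cases, *Hspa4l* (1.07), *Dnajb4* (1.06) and *Hspb1* (1.82), the last with an adjusted p of 0.189 without GCSF 0h replicate 1, 0.111 without GCSF-OHT 1h replicate 2 and 0.0834 without replicate 3, and endoplasmic reticulum chaperones in 2 of 20, *Hspa5* (0.67) and *Dnajb9* (0.61, and 0.57, under the threshold, without GCSF-OHT 1h replicate 3). In the ATF4 and stress-response list, 3 of 24 rose and *Sesn2* fell by 0.58, at the edge of the threshold. It was under the threshold, between -0.51 and -0.58, with a pseudocount of 5, upper-quartile scaling, edgeR and DESeq2, and without GCSF 0h replicate 2, GCSF-OHT 1h replicate 1 or GCSF-OHT 1h replicate 3. *Ppp1r15a*, which reverses the phosphorylation of eIF2α, was at 559, 454 and 458 and at 1059, 1135 and 1058 (log2 fold change 1.15, standard error 0.09, adjusted p = 2.19e-21).

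Among transcription factors of the myeloid lineages, 7 of 46 fell and 1 rose (median -0.07), where 2.03% of all genes fell. *Gfi1* (ENSMUSG00000029275, chromosome 5 from 107716657 to 107726036 on the reverse strand), the zinc-finger repressor needed for neutrophil development, was at 8342, 9562 and 9445 at 0h and at 4591, 4641 and 4805 at 1h (log2 fold change -0.96, standard error 0.06, adjusted p = 1.96e-28). All 3 libraries at 1h lay below the lowest at 0h. *Cebpe*, a granulocytic C/EBP factor, fell from 2047, 2386 and 2329 to 1392, 1537 and 1573 (log2 fold change -0.59, standard error 0.10, adjusted p = 9.16e-07). *Tal1* and *Nfe2*, factors better known from erythroid and megakaryocytic cells, fell by 0.68 and 0.63, and *Irf1*, *Cebpg* and *Per3* by 0.59, 0.59 and 0.70. The member that rose was the retinoic acid receptor *Rara*, by 0.62, and by 0.51, under the threshold, without GCSF 0h replicate 3.

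Among genes with a settled symbol, separate groups and a mean of at least 50 in the higher group, the largest falls were smaller than the largest rises. They fell on genes of varied function. Without the condition on the symbol, the largest such fall was -1.93. *Slc27a3*, an acyl-CoA synthetase of the fatty acid transport family, was at 238, 282 and 202.2 at 0h and at 70.1, 69.7 and 112.6 at 1h (log2 fold change -1.53, standard error 0.13, adjusted p = 4.85e-20). *Dll4* (ENSMUSG00000027314, chromosome 2 from 119325784 to 119335962 on the forward strand), a Notch ligand, was at 275, 281 and 289.8 and at 106.2, 93.6 and 94.5 (log2 fold change -1.52, standard error 0.11, adjusted p = 5.72e-23). *Rubcn*, a negative regulator of autophagy, went from 493, 552 and 489 to 242, 224 and 249.8 (log2 fold change -1.10, standard error 0.07, adjusted p = 3.64e-26). All 3 were separate between the groups. *Tnfrsf18*, the receptor GITR, fell by 1.47, *Kctd21* by 1.46, *Thap2* by 1.22, *Pdxp* by 1.10 and the lysophosphatidic acid receptor *Lpar5* by 1.11. *Zfp456*, *Zfp60*, *Zfp442* and *Zfp174*, which encode zinc-finger proteins, were also among the 15 largest falls under these conditions, at -1.36, -1.20, -1.08 and -1.07. In a fit of only the 2 groups compared, *Zfp174* had an adjusted p of 0.0575.

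Families formed after these values were seen gave 3 further descriptions. Of 365 genes whose symbol starts with Zfp, 33 (9.04%) fell and 17 (4.66%) rose, against 2.03% and 4.01% of all genes. Of 57 histone genes, 11 (19.3%) rose and none fell. The linker histone *H1f2* led them by level, from 1641, 1445 and 1254 to 5955, 6105 and 6334 (log2 fold change 2.09, standard error 0.09, adjusted p = 1.07e-43), and *H2bc8* by fold, at 2.35. Replication-dependent histone mRNAs carry no poly(A) tail, and the libraries were made from polyA RNA, so these values cover only the polyadenylated part. Of 12 genes of the HIN-200 group on chromosome 1, which holds close paralogs, 5 rose and none fell. Of these 5, *Ifi204* lost its call in a fit of only the 2 groups compared (adjusted p = 0.0635). *Ifi207* went from 15.7, 11.5 and 10.3 to 76.3, 78.03 and 82.2 (log2 fold change 2.58, standard error 0.24, adjusted p = 4.01e-17), and *Ifi203* rose by 2.23, but the counting could split reads between these paralogs.

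Several lists held few calls or none, where 4.01% of all tested genes rose and 2.03% fell. At those shares, lists of this size would hold few calls. None of 27 cholesterol genes, 32 DNA replication and mitosis genes, 10 genes of the Myc network, 34 ribosomal protein genes and 13 mitochondrially encoded genes was called, with medians of -0.09, -0.16, 0.02, 0.27 and 0.21. All 34 ribosomal protein genes had positive log2 fold changes, each below the threshold. *Myc* was at 3782, 3466 and 3561 at 0h and at 4781, 5051 and 5058 at 1h (log2 fold change 0.46, standard error 0.07, adjusted p = 1.28e-08), within the fold-change threshold. Of 28 interferon-stimulated genes 1 rose and 2 fell, *Stat2* and *Irf9*, both subunits of the factor ISGF3. Without GCSF 0h replicate 2 or GCSF-OHT 1h replicate 1, *Irf9* was under the threshold, at -0.57 and -0.58 against -0.63 with all libraries. Of 16 estrogen receptor and estrogen-responsive genes 2 rose, *Cited2* (0.74) and *Rara*. *Esr1* was at 3917, 4119 and 3999 and at 4563, 4369 and 4543 (adjusted p = 0.0239, log2 fold change 0.16). The gene-level counts cannot tell whether reads on *Esr1* came from the receptor part of the fusion transcript. Of 28 G1 and p53 genes *Mdm2* rose, by 0.79, and of 12 progenitor markers *Cd93* rose, by 0.60, which fell to 0.56 without GCSF 0h replicate 2 or GCSF-OHT 1h replicate 1 and to 0.58 without GCSF 0h replicate 3, each under the threshold.

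Markers of other cell types gave 1 call, where 4.01% of all tested genes rose and 2.03% fell. Of 10 erythroid and megakaryocyte markers *Gp1ba* rose, by 0.78, and none of 10 mast cell, basophil and eosinophil, 12 lymphoid and dendritic and 9 stromal and endothelial markers was called. Without GCSF-OHT 1h replicate 1 the adjusted p of *Gp1ba* was 0.0519. The summed normalized counts of the lymphoid and dendritic list were 691 to 759 at 0h and 652 to 728 at 1h, and those of the mast cell list 4251 to 4274 and 4504 to 4711. Those of the erythroid and megakaryocyte list were 5155 to 5310 and 5376 to 5871. The stromal and endothelial list was highest, at 13836 to 14673 and 15052 to 15177. The endothelial gene *Pecam1* had means of 10969.5 at 0h and 11176.5 at 1h, so not all markers of other cell types were low. *Gata1*, the defining erythroid factor, had a mean of 0.914 and 1.44, below the floor.

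**Figure D2:**
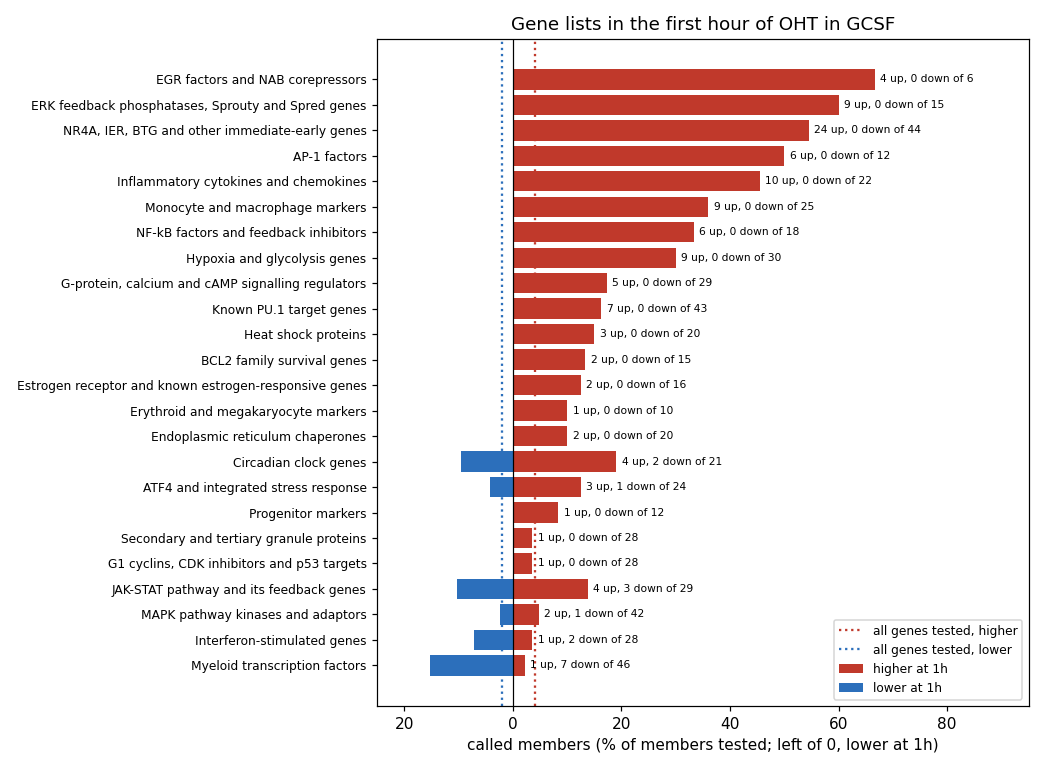
Share of the tested members of each gene list that rose (red, right) or fell (blue, left) in the first hour of OHT in GCSF, for lists with a called member. The dotted lines mark the 4.01% and 2.03% of all tested genes that rose and fell, and the EGR list stands highest with 4 of 6 genes.

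Single genes outside the lists were among the largest rises. *Hcar2*, a nicotinic acid receptor, went from 98.9, 82.3 and 76.4 to 515, 499 and 532 (log2 fold change 2.58, standard error 0.11, adjusted p = 1.04e-41). *Apol8* went from 2.77, 1.77 and 0.932 to 94.9, 100.9 and 133.1 (log2 fold change 5.33, standard error 0.56, adjusted p = 2.12e-14), its 0h values being at or under the floor. *Yy2*, a retrogene copy of the zinc-finger gene *Yy1*, had no read in any GCSF 0h library and 62.9, 39.5 and 78.1 at 1h, at least 21.5-fold higher when 3 reads in a 0h library are set as the floor. Reads could be split between *Yy2* and near copies or overlapping genes, so its values are uncertain, and it was at 0, 36.8 and 47.3 in undifferentiated cells.

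The first hour of OHT was then compared between GCSF and IL3. In IL3, 489 genes rose (2.81%) and 281 fell (1.61%). Of the genes that rose, those shared were 24.2% of the list in GCSF and 34.6% of the list in IL3, and of the genes that fell 79 were shared, 22.3% and 28.1%. The test of the difference itself, the interaction of time with condition, called 275 genes (1.58%) with a larger log2 change in GCSF, and a further 1.23% of genes had a smaller one. The 2 arms differ in cytokine, in OHT dose (100 nM and 200 nM) and in handling, since the IL3-OHT 1h cells had been plated for 48 h when OHT was added while IL3 0h are the undifferentiated cells before plating, and these cannot be told apart. Of the 699 genes that rose in GCSF, 29% had a larger change than in IL3 and 1 gene a smaller one, and of the 354 that fell, 66 fell further than in IL3. Both lists were chosen by the GCSF libraries that also enter the difference. The imbalance within them was thus largely set by that choice and does not show a stronger response in GCSF.

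Several immediate-early genes changed more in GCSF, where they started lower. *Fosb* was at 10492, 10284 and 10230.1 in the IL3 0h libraries and 17926, 19210.1 and 19327 in IL3-OHT 1h, a log2 fold change of 0.86 against 6.99 in GCSF (difference 6.13, adjusted p = 4.03e-42). Its level at GCSF-OHT 1h, 4987, was thus below both IL3 groups. *Egr3* was at 816, 691 and 763 and 1009, 1013 and 954 in IL3 (difference 3.91, adjusted p = 2.16e-04), and *Atf3* at 2099, 2120.3 and 2132 and 3326, 3161 and 3344 (difference 3.27, adjusted p = 7.40e-26). For *Egr1* the changes were 1.56 in GCSF and 1.44 in IL3, with a difference that did not pass the test (adjusted p = 0.867), and for *Egr2* 2.02 and 1.39 (adjusted p = 0.239). *Gfi1* fell in both, by 0.96 and 0.67 on the log2 scale, from means of 9116 and 1034, and the difference of -0.29 passed the p threshold (adjusted p = 0.0173) and not that of size.

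Some genes were called in opposite directions in the 2 arms. *Iglon5*, a neural adhesion protein, rose by 1.99 in GCSF and fell by 1.15 in IL3 (difference 3.14, adjusted p = 3.89e-07). *Nab2* rose by 0.68 and fell by 0.97 (difference 1.65, adjusted p = 2.56e-14), and without GCSF 0h replicate 3 its rise was 0.57. *Irgm1*, an interferon-inducible GTPase, went the other way, a fall of 0.84 and a rise of 0.78 (difference -1.62, adjusted p = 5.10e-10), so the directions were reversed between the arms. *Lmna*, which encodes lamins A and C, was at 608, 543 and 477 at GCSF 0h and 2451, 2385 and 2399 at 1h (log2 fold change 2.16, standard error 0.07, adjusted p = 9.98e-52), while in IL3 it was at 16341, 15472 and 16399.8 and 11163, 11059 and 11572, a log2 fold change of -0.51 that was within the size threshold (difference 2.67, adjusted p = 2.08e-45). *Cd300lb*, an activating myeloid receptor, rose by 2.31 in GCSF and had -0.18 in IL3 (difference 2.49, adjusted p = 6.47e-40). *Mybl1*, a MYB-family factor, was called in IL3 and not in GCSF. It was at 212.6, 249.7 and 215.3 and 229, 221 and 245 in GCSF and at 369, 352 and 422 and 1502, 1526 and 1249 in IL3 (difference -1.86, adjusted p = 6.17e-16). *Pim1* rose in both, by 1.00 and 1.58 (difference -0.58, adjusted p = 4.59e-05).

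**Figure D3:**
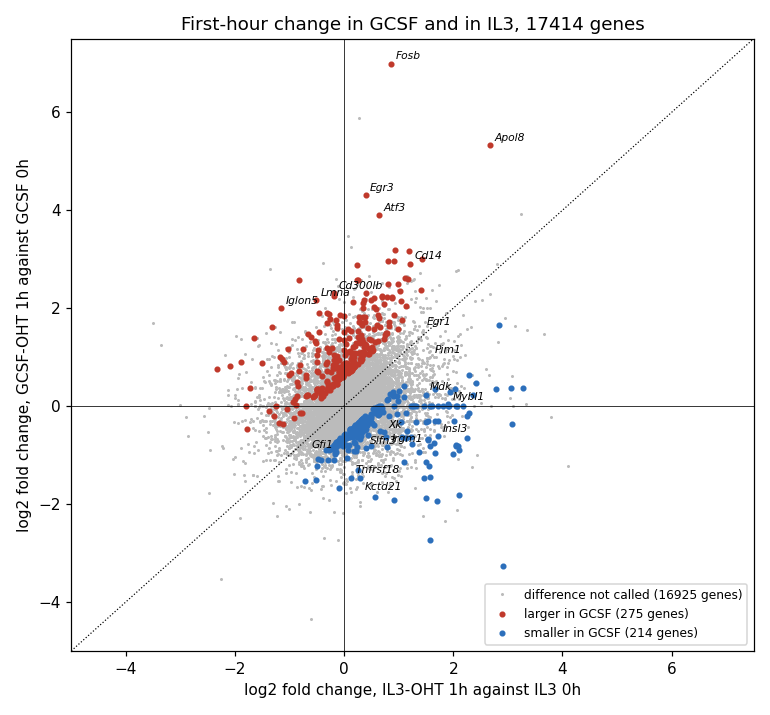
First-hour log2 fold change in IL3 (x axis) against that in GCSF (y axis) for the 17414 tested genes, with the genes whose change differed by the interaction test in red (275, larger in GCSF) or blue (smaller) and a dotted line of equal change. *Fosb* lies at 6.99 on the y axis and 0.86 on the x axis.

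Later time points of the same differentiation show how long the levels lasted. They are compared with the same GCSF 0h libraries, so their values are given side by side with no test. *Fosb* had means of 667, 91.6, 34.4 and 762 at 2h, 4h, 24h and 168h, after 4987 ± 529.9 (SD, n = 3) at 1h and 38.1 ± 4.07 at 0h. *Dusp10* had 36.96, 34.96, 21.1 and 22.02 at those times and *Per1* 306, 244, 488 and 644, after 307 ± 24.8 and 1351 ± 110.6 at 1h. All 3 were at 4h far below their level at 1h. *Cd14* instead stayed high, at 5476, 6209, 3570.0 and 3303 after 5768 ± 105.3 at 1h, and *Cx3cr1* was higher at each of these times, at 1277, 2324, 3567 and 4167 after 531 ± 40.6. *Csf2rb2* passed its 1h mean of 6069 ± 476 with 16099, 29018, 12426 and 14500.2, and *Cd300lb* its 591 ± 37.01 with 1173, 1106, 1160.1 and 2342. The means of these 3 receptors were higher at 4h than at 1h. *Gfi1* stayed below its 0h level, at 4087, 5152, 4865 and 3170.2, after 9116 ± 673 at 0h, whereas *Slc27a3* was at 147.1, 274, 313 and 224 after 84.1 ± 24.6 at 1h and 240.4 ± 39.7 at 0h.

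**Figure D4:**
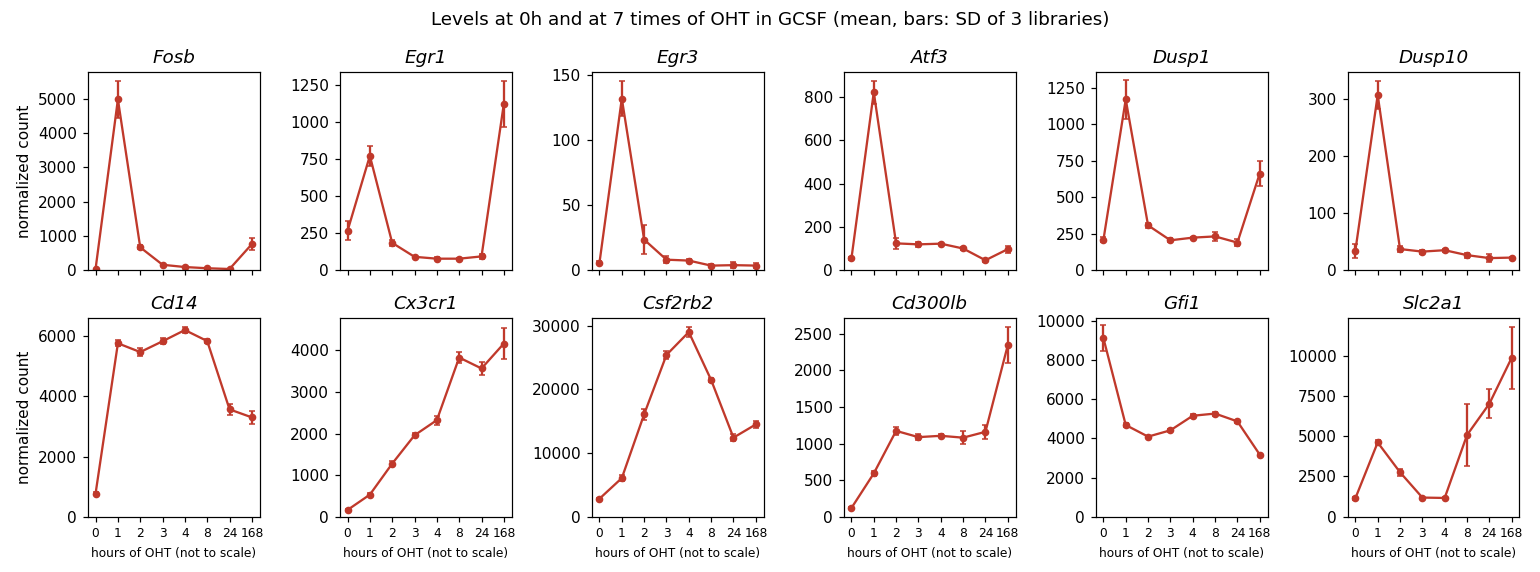
Mean normalized count (linear axes from 0, bars: SD of 3 libraries) at GCSF 0h and at 1h, 2h, 3h, 4h, 8h, 24h and 168h of OHT for 12 genes, with the hours equally spaced and not to scale. *Fosb* peaks at 1h with a mean of 4987, *Cx3cr1* climbs to 4167 at 168h and *Gfi1* drops from 9116 to 4679 in the first hour.

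Before the GCSF pre-treatment, in undifferentiated cells, several of the genes that rose had been higher than at GCSF 0h. *Fosb* had a mean of 10336 ± 138.5 (SD, n = 3) in IL3 0h, *Egr1* 2944 ± 81.4, *Dusp5* 3965 ± 214.6 and *Cd14* 7861 ± 52.4, against 38.1, 265, 251 and 770.0 at GCSF 0h. At GCSF-OHT 1h these 4 genes were still below their level in undifferentiated cells. *Gfi1* had the reverse order, with 1034 ± 20.3 in undifferentiated cells and 9116 ± 673 at GCSF 0h, and *Cx3cr1* was at 61.9 ± 1.76 and 162.1 ± 34.9. These values share the GCSF 0h libraries with the first-hour comparison and no test was made on them.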

How the data were processed

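RNA-Seq values of PUER cells (165 libraries in the series) were taken as deposited. The authors quantified transcripts with Salmon on GRCm38 and divided each library's counts by its DESeq2 size factor, so the deposited signal is a normalized count of 36255 genes. How transcripts were brought to genes is not given in the sources used here. Whole reads could be recovered: divided by a library's smallest nonzero value, 100% of its nonzero values came out within 0.05 of a whole number.

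The 17414 genes that reached a normalized count of 5 somewhere in 159 libraries were tested. IL3-OHT 96h and 144h, which the study excluded, were left out. The fit used limma 3.58.1 in R 4.3.3, with 1 mean per condition and time point on log2 values with a pseudocount of 1, a variance that follows the mean (limma-trend), and Benjamini-Hochberg adjustment per comparison. On simulated data it recovered the changes put in, but among genes of low count it called more unchanged genes than its nominal rate allows. DEGs of low count are therefore less certain, and the genes named for size had a mean of at least 50 in the higher group. The interaction was the first-hour change in GCSF minus that in IL3 (275 genes above 0 and 214 below). Alternatives were pseudocounts of 0.5 and 5, no filter, a mean of at least 10, upper-quartile scaling, each library left out, the replicate block, a fit restricted to the groups compared, edgeR 4.0.16 with TMM and DESeq2 1.42.0, the last 2 on the recovered reads.

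The named genes were the 15 largest rises and 15 largest falls with separate groups and a settled symbol, up to 4 called genes per list (or 2 of the highest level), the 8 largest interactions in each direction and *Spi1*, *Gfi1*, *Egr1*, *Egr2*, *Cebpa* and *Csf3r*. Other genes, such as *Jund*, *Nr4a1* and the histone genes, were chosen after their values were seen. Some genes that the rule names are not reported here. Members, lists and tests were chosen with earlier results of these data known. Samples were grouped by their labels, 3 cultures in each group compared. The p-values of the main fit rest on the spread between cultures of a group, pooled over all 54 groups in the fit. They hold no spread between plates, since each time point had a plate of its own. The replicate numbers mark no shared plate, and deviations of same-numbered GCSF libraries from their group means correlated at 0.11, -0.15 and -0.03, so the numbers were not taken as pairs. Between replicates of the 6 libraries the chi-square per gene, 1 for counting error alone, was 2.63 to 7.66. Gene positions are from GENCODE vM21 (GRCm38), which held 34761 of the 36255 symbols. Motifs were searched in Python 3.11.15 with pandas 2.3.3, and plots drawn with matplotlib 3.10.9.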

Additional observations from a re-analysis of the deposited data

Results flagged for a closer look

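The first-hour changes in GCSF and in IL3 differed by the interaction test for 1.58% of tested genes with a larger and 1.23% with a smaller log2 change in GCSF. Among the largest differences above 0 were *Fosb* (6.13), *Egr3* (3.91), *Atf3* (3.27), *Iglon5* (3.14), *Lmna* (2.67), *Apol8* (2.66) and *Cd300lb* (2.49). Among the largest below 0 were *Insl3* (-2.34), *Mybl1* (-1.86), *Kctd21* (-1.75), *Irgm1* (-1.62), *Tnfrsf18* (-1.59), *Xk* (-1.27), *Mdk* (-1.26) and *Slfn3* (-1.26). Each was flagged because the test of the difference itself passed its threshold. Without GCSF 0h replicate 3 the difference of *Apol8* was 2.41 with an adjusted p of 0.0640, and without IL3 0h replicate 1 that of *Insl3* was -1.01 with an adjusted p of 0.287.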

How the results depend on the processing

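Counts of calls are given here as percentages of the 17414 genes tested. In GCSF, where 4.01% rose and 2.03% fell, both counts stayed within 1.5 times under the other pseudocounts, filters and scaling, without any 1 library, in the fit restricted to the groups compared, and in edgeR and DESeq2. Leaving out a library gave 3.44% to 4.08% rises and 1.83% to 2.12% falls in GCSF, 1.36% to 1.89% and 1.07% to 1.21% interaction genes above and below 0, and 2.38% to 2.63% rises and 1.41% to 1.79% falls in IL3. edgeR called 996 genes in GCSF, 922 of them among the 1053 called by limma, and DESeq2 993, with 901 shared. Where the mean had to reach 10, the rises in IL3 were 1.77% rather than 2.81%. Of the 770 genes called in IL3 by the main fit, 514 were among the 538 called under that filter. With the replicate block over all groups the values were 4.02% and 2.05% in GCSF, 1.58% and 1.24% for the interaction, and 2.81% and 1.62% in IL3. A block in the fit restricted to the groups compared was added after seeing the data. It gave 2.58% rises in GCSF, 0.764% interaction genes below 0, and 0.609% rises and 0.149% falls in IL3, and the cause was not tested. In that fit *Slc27a3*, *Mmp23*, *Tnfrsf18*, *Kctd21*, *Zfp442*, *Zfp174*, *Map3k8*, *Map3k14*, *P4ha1* and *Ifi204* lost their calls, with adjusted p from 0.0524 to 0.160. In the fit restricted to the groups compared without a block, *Zfp174*, *Ifi204*, *Hspb1* and *Gp1ba* lost theirs (adjusted p 0.0575, 0.0635, 0.0701 and 0.0756). *Hspb1* also lost its call with a pseudocount of 0.5 and with no filter (adjusted p 0.0551 and 0.0568). The replicate numbers did not pair the samples. *Insl3* lost its interaction call in edgeR, DESeq2 and both restricted fits (adjusted p from 0.108 to 0.345), and *Tnfrsf18* lost its own in both restricted fits (adjusted p 0.0526 and 0.101). No named gene that was called changed direction under these alternatives. Depth limits the rises from at most 3 reads in every 0h library and the 25 falls to at most 3 reads in every 1h library.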
